A study of Mus musculus with 4 samples.

Results

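The 6 genes described here encode Id proteins and E proteins. Their transcripts were measured in Treg cells of the mouse, the Foxp3-expressing CD4 T cells that hold immune responses in check. The members were all probe sets that the platform annotation gives to Id1, Id2, Id3, Tcf3, Tcf4 or Tcf12: 19 of the 45101 on the array, which named 18193 genes. Id2 had 3, Id3 and Id1 had 1 each, Tcf3 had 3, Tcf4 had 6 and Tcf12 had 5, and none was shared with another gene. Tcf3 here is the gene of E2A, Tcf4 that of E2-2 and Tcf12 that of HEB, and not the T cell factors that carry similar names. Of the 19 probe sets 16 passed the filter on dim signals, and these covered 5 of the 6 genes, all but Id1.

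The data came from 4 arrays of CD4+Foxp3+ cells from the spleen of C57BL/6 mice, 2 labelled Foxo1/3-deficient and 2 labelled wild-type, in numbered pairs that held 1 array of each. Foxo1 and Foxo3 encode transcription factors that growth signals keep out of the nucleus. The titles of the deficient samples name both genes, whereas their genotype field names Foxo1 alone, and the titles set the groups. The sources used here do not give the age and sex of the mice, the means of the deletion, the cells that carried it or whether mice were pooled. Separate animals are not stated for the arrays of a genotype either, so each p measures the spread between these arrays, which may be technical.

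Foxo1 itself went against the labels. Its brightest probe set read 6949 and 6697 on the arrays labelled Foxo1/3-deficient, in pair 1 and pair 2, against 2383 and 1254 on the wild-type arrays (limma adjusted p = 0.0209, and 0.0685 without the filter on dim probe sets). Its other probe sets above the filter were 4.57-fold and 4.64-fold higher there. Foxo3 read 1424 and 1308 against 1876 and 2635, a difference that missed the threshold (limma adjusted p = 0.241). Whether these probe sets read the deleted part of each gene is unknown here. Whether the genotype labels are exchanged was not tested; every direction below is that of the arrays as labelled, and an exchange would turn each of them. The Treg cell marker Foxp3 read 6504 and 6056 against 6540 and 6285, and all 6 Treg markers listed were measured, with none past the threshold, blocked by pair or not.

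E proteins are basic helix-loop-helix transcription factors that pair with each other and bind the E-box, a short DNA motif. Id proteins carry a helix-loop-helix domain without the basic, DNA-binding stretch, and an E protein paired with an Id protein cannot bind DNA. In mouse T cells this balance sets thresholds in thymic development and in effector and memory differentiation, and mouse Treg cells that lack both Id2 and Id3 are poorly maintained.

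The promoters of Id2 and Id3 are shown because these were the member genes whose transcripts differed past the test. Both are 250 bases that end just before the transcription start in RefSeq, build GRCm38.p6. That of Id2 lies on the minus strand at chr12:25096093-25096342, and that of Id3 on the plus strand at chr4:136143572-136143821. Capitals mark an E-box, written CANNTG.
Id2: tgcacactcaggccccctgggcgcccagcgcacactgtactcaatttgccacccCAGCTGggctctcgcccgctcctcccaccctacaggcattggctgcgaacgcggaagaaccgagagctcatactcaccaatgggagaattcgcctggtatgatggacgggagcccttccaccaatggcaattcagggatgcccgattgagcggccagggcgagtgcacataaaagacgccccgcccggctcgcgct
Id3: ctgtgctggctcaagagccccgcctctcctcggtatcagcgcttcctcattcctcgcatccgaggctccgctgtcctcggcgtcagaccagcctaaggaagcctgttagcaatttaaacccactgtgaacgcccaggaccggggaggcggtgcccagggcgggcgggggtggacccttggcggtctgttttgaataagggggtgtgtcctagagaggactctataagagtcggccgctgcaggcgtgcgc
The Id2 window held 1 E-box, of the form CAGCTG, which began 196 bases before the start, and the Id3 window held none. Of 32851 RefSeq promoter windows of this length, 66.2% held a CANNTG and 13.0% a CAGCTG. The FoxO motif GTAAACA, searched on both strands, was in neither window and in 3.17% of all windows. The Egr motif GCGTGGGCG was likewise in neither, and in 0.536% of all. A match describes the letters only, and these windows say nothing of sites farther away.

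Id2 was lower and Id3 higher on the arrays labelled Foxo1/3-deficient, while no E protein gene passed the test. In bulk samples fewer cells of a type and less RNA per cell cannot be told apart. The comparison asked which of these transcripts differ in Treg cells with the Foxo1/3 label. Signals were tested as log2(signal + 17) with limma over 12115 genes, each read from its brightest probe set, at an adjusted p of 0.05. Changes are on that scale, which understates those of dim genes. Of the 5 member genes tested, 1 was higher and 1 lower; over all genes 2.57% were called in either direction, 1.21% higher and 1.35% lower. With the pair as a blocking term the members called were again 2 of 5, beside 11.6% of all genes (5.23% higher and 6.36% lower). The groups did not overlap in 4 of the 5, 3 higher and 1 lower, beside 41.1% of all genes, 20.0% higher and 21.1% lower.

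**Figure D1:**
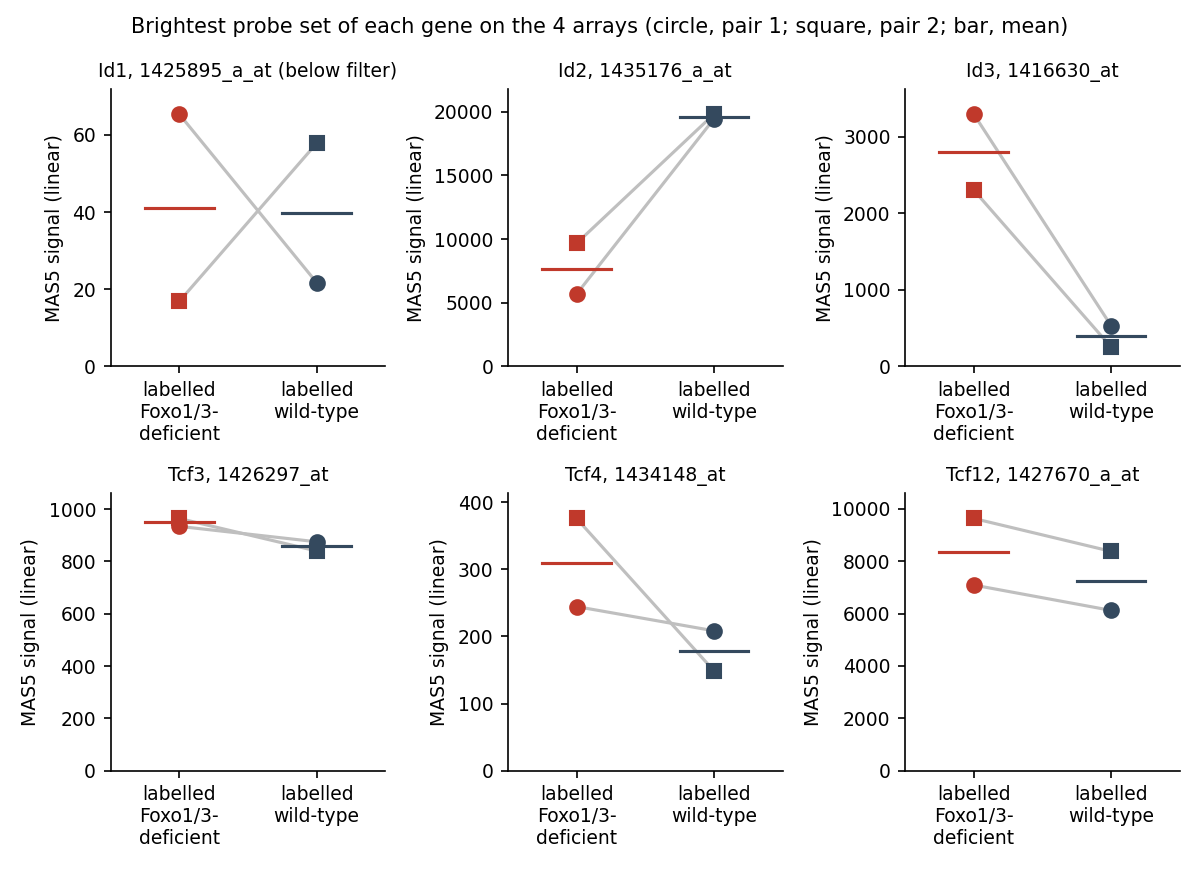
MAS5 signal (linear, vertical axis from 0) of the brightest probe set of each of the 6 genes on the arrays labelled Foxo1/3-deficient (left) and wild-type (right); circles are pair 1, squares pair 2, bars the mean of 2 arrays, and grey lines join a pair. Id2 lies lower and Id3 higher on both labelled-deficient arrays, and the 2 pairs of Id1 cross.

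Id2 encodes the Id protein known from innate lymphoid cells and effector T cells. Its brightest probe set is 1435176_a_at. It read 5677 and 9658 on the labelled-deficient arrays, against 19427 and 19798 on the wild-type arrays. The means were 7667 ± 2815 and 19612 ± 262 (SD, n = 2 each). Both labelled-deficient arrays lay below both wild-type arrays, and the labelled-deficient arrays differed from each other by more than the wild-type arrays did. Id2 was 2.64-fold lower, or -1.40 ± 0.25 as a log2 difference with its SE (adjusted p = 0.0343 by limma). It ranked 180 among the 6098 genes with a difference below 0. The fall was 3.42-fold within pair 1 and 2.05-fold within pair 2.

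The call for Id2 on this probe set rested on labelled-deficient replicate 1 and on the variance model. Without that array the log2 difference was -1.02 (limma adjusted p = 0.0664). The adjusted p was 0.112 when dim probe sets were kept in and 0.125 when the variance was not fitted to intensity. The wild-type signals of 19427 and 19798 were bright, though below the highest signals of those arrays, 41566 and 32381.

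The second Id2 probe set, 1422537_a_at, showed the largest and most even fall of the 3. It read 290 and 344 on the labelled-deficient arrays, against 1386 and 1392 on the wild-type arrays. That was 4.22-fold lower, or -2.08 ± 0.25 as a log2 difference with its SE (limma adjusted p = 0.0103 over 22236 probe sets). The fall was 4.56-fold in pair 1 and 3.90-fold in pair 2, and the call held without any 1 array (adjusted p at most 0.0374). The third, 1453596_at, read 216 and 163 against 357 and 368. Its log2 difference of -0.89 ± 0.30 pointed the same way without passing (adjusted p = 0.259 by limma, or 0.0745 when blocked by pair). The probe sets of Id2 gave the same direction in both pairs and sizes from 1.85-fold to 4.22-fold.

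Id3, the Id protein known from naive and memory T cells, moved the other way. Its single probe set, 1416630_at, read 3294 and 2302 on the labelled-deficient arrays, against 532 and 253 on the wild-type arrays. The means were 2798 ± 702 and 393 ± 197 (SD, n = 2 each). The lower labelled-deficient array stood well above the higher wild-type array. Id3 was 7.19-fold higher, or 2.85 ± 0.37 as a log2 difference with its SE (adjusted p = 0.0116 by limma), and ranked 17 among the 6017 genes with a difference above 0. Within pair 1 the rise was 6.03-fold and within pair 2 8.58-fold.

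The Id3 call over genes held without any 1 array, with adjusted p values from 1.64e-05 to 0.0195 and log2 differences from 2.33 to 3.36. Tested over every probe set it gave a limma adjusted p of 0.0120. This became 0.0695 with dim probe sets kept in and 0.0506 when the variance was not fitted to intensity. In the fit over genes the same changes gave 0.0490 and 0.0455. With 1 probe set for this gene, no second reading of it was at hand.

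Id1 is the Id protein best known as a target of bone morphogenetic protein signals and as a transcript of endothelial cells. Its probe set, 1425895_a_at, was dim, at 65.4 and 16.9 on the labelled-deficient arrays and 21.7 and 57.8 on the wild-type arrays. It fell under the filter, which lay at a signal of about 40.5, and was not tested. On the log2(signal + 17) scale it was 2.13-fold higher within pair 1 and 2.21-fold lower within pair 2, and its groups overlapped. Id4, the remaining Id gene and not a member, also stayed under the filter, with no array above 22.9.

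No E protein gene passed the test. Of their 14 probe sets 12 were tested, 11 had a log2 difference above 0, and limma called 0 of the 12, with or without blocking by pair. Over all genes, 6017 of the 12115 tested lay above 0. Several of the 12 read the same gene on the same 4 arrays, so the 11 are not separate readings. At an unadjusted limma p under 0.05 there was 1 of the 12, the Tcf4 probe set 1416723_at, beside 13.0% of all genes. Over all 16 member probe sets tested the calls were the 2 of Id2 and that of Id3, beside 1.44% of all probe sets (0.805% higher and 0.639% lower). Blocked by pair they were again 3 of 16, beside 7.57% (3.72% higher and 3.85% lower). The groups did not overlap in 10 of the 16, 7 higher and 3 lower, beside 39.2% of all probe sets, 20.5% higher and 18.8% lower.

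Tcf3 encodes the E2A proteins E12 and E47, which drive early lymphocyte development. Its brightest probe set, 1426297_at, read 934 and 964 on the labelled-deficient arrays, against 875 and 840 on the wild-type arrays. The groups did not overlap, by a narrow gap. The log2 difference was 0.14 ± 0.23 (SE; adjusted p = 0.907 by limma), and 67.3% of genes differed by more in either direction. A dimmer probe set, 1427764_a_at, read 140 and 161 against 97.9 and 193, with overlapping groups. The third, 1452542_x_at, stayed under the filter, with no array above 35.3.

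Tcf4 encodes E2-2, the E protein that plasmacytoid dendritic cells depend on. Its brightest probe set, 1434148_at, read 244 and 375 on the labelled-deficient arrays, against 208 and 149 on the wild-type arrays. The groups did not overlap, yet the ratio was 1.16-fold within pair 1 and 2.37-fold within pair 2. The log2 difference was 0.73 ± 0.34 (SE; limma adjusted p = 0.440).

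Over the 5 Tcf4 probe sets tested, 5 were higher on the labelled-deficient array in pair 2 but 3 in pair 1. The largest difference was that of 1416723_at, which read 261 and 359 against 174 and 136, 0.92 ± 0.32 as a log2 difference with its SE (limma adjusted p = 0.284 over probe sets). The probe set 1424089_a_at read 166 and 183 against 229 and 74.2, with the labelled-deficient array lower in pair 1 and higher in pair 2. Likewise 1416724_x_at, a set whose suffix marks probes that can match other sequences, read 271 and 223 against 282 and 104. The dim 1434149_at read 67.2 and 89.9 against 43.6 and 61.2, and 1416725_at stayed under the filter.

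Tcf12 encodes HEB, an E protein of developing T cells. Its brightest probe set, 1427670_a_at, read 7091 and 9635 on the labelled-deficient arrays, against 6123 and 8379 on the wild-type arrays. Both arrays of pair 2 lay above those of pair 1 within their genotype, so the groups overlapped while the ratio was alike in the pairs, at 1.16-fold and 1.15-fold. The log2 difference was 0.21 ± 0.23 (SE; limma adjusted p = 0.843), and its sign turned without labelled-deficient replicate 2 or without wild-type replicate 1.

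The other Tcf12 probe sets did not share 1 direction. The probe set 1421908_a_at read 759 and 845 against 429 and 633, a log2 difference of 0.60 ± 0.29 (limma adjusted p = 0.501). A further one, 1439619_at, read 243 and 264 against 220 and 129 (0.54 ± 0.34, adjusted p = 0.689). On 1439209_at and 1446294_at the groups overlapped and the log2 differences were 0.025 ± 0.27 and -0.032 ± 0.30.

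**Figure D2:**
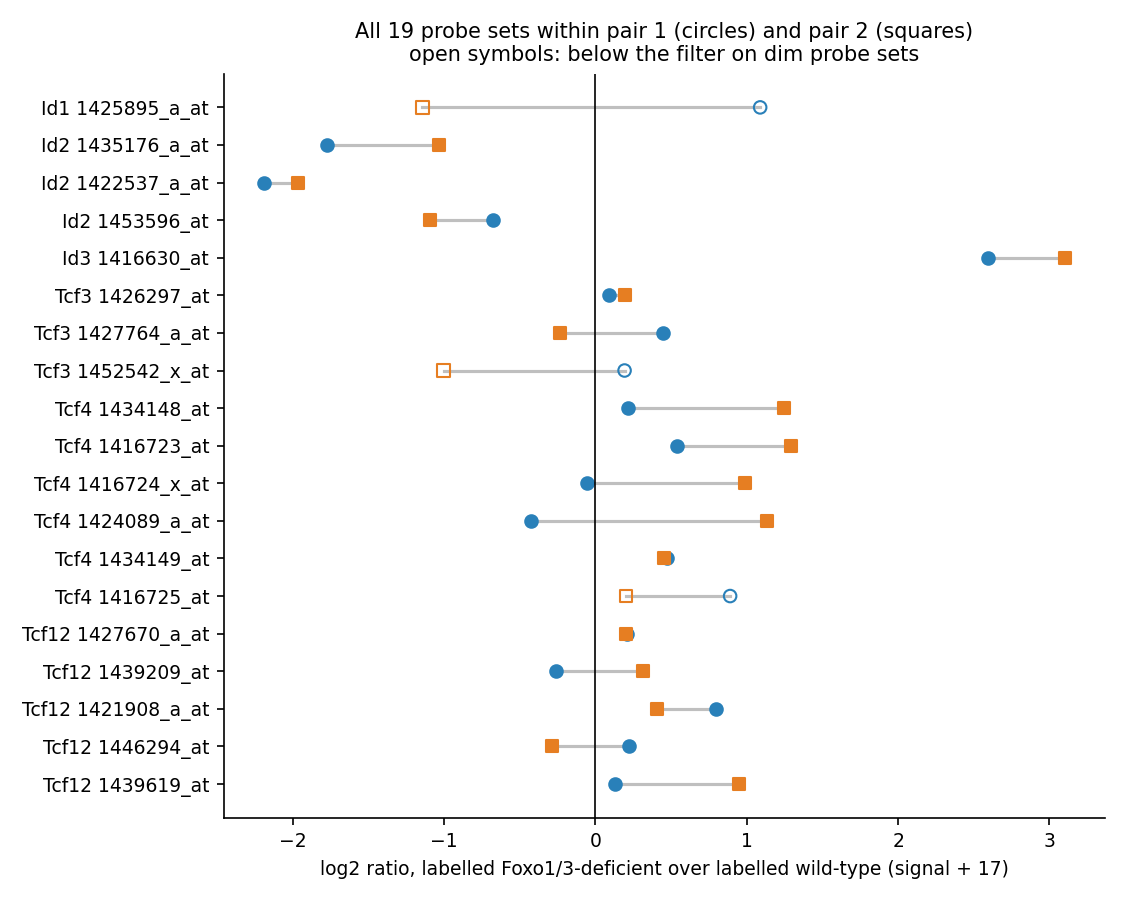
Log2 ratio of signal + 17 (horizontal axis), labelled Foxo1/3-deficient over labelled wild-type, of all 19 probe sets (rows); circles are pair 1, squares pair 2, open symbols lie below the filter, and grey lines join the pairs. The 3 Id2 probe sets lie left of 0 and Id3 right of it in both pairs, while the E protein probe sets spread to both sides of 0 in pair 1 and, in pair 2, reach 1.29 for Tcf4, with a dim Tcf3 set 2.00-fold lower.

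Within the numbered pairs, Id2 and Id3 were the 2 of the 5 member genes that moved at least 2-fold the same way in both pairs. Over all genes 4.38% did so, 2.06% higher and 2.32% lower. Of the 16 probe sets tested 11 went the same way in both pairs and 5 went opposite ways. Those 5 belonged to E protein genes, and none of them was called. The share of all probe sets that went opposite ways was not computed, so the 5 cannot be read as particular to E protein genes. At least 2-fold the same way in both pairs were 3 of the 16, 1 higher and 2 lower, beside 3.71% of all probe sets (1.98% higher and 1.74% lower). With 1 array of each genotype in a pair, no test within a pair was possible.

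**Figure D3:**
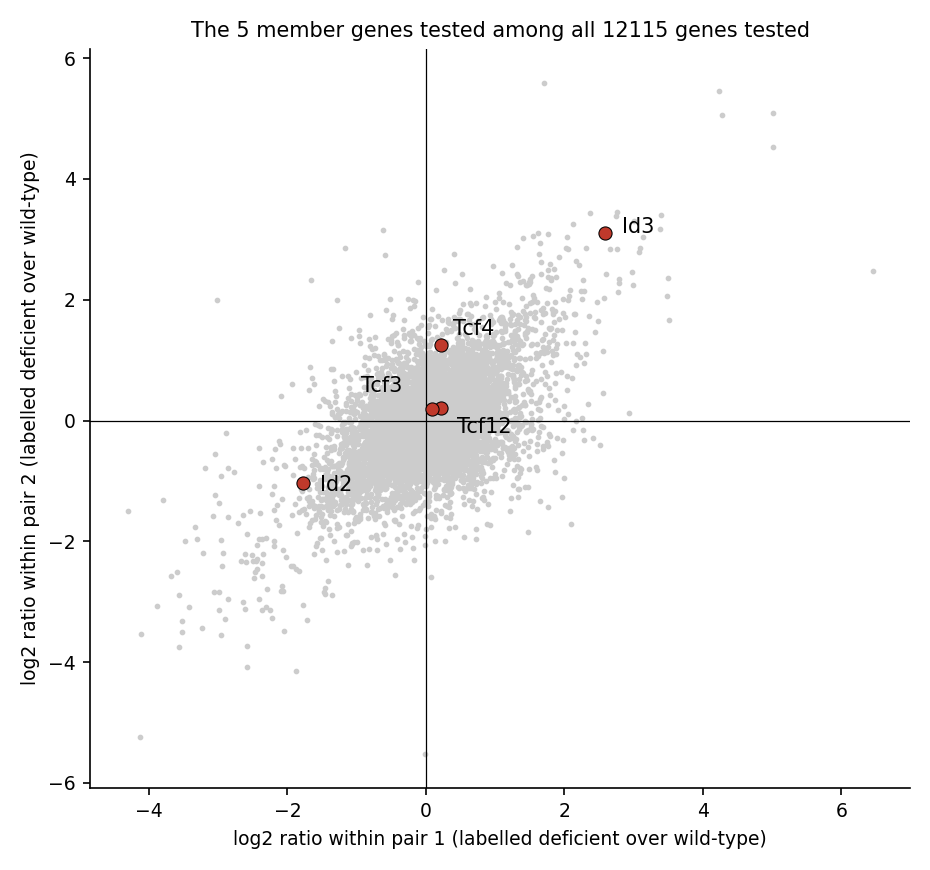
Log2 ratio of signal + 17, labelled Foxo1/3-deficient over labelled wild-type, within pair 1 (horizontal) and pair 2 (vertical) for the 12115 genes tested (grey) and the 5 member genes tested (red). Id3 stands far out at the upper right and Id2 at the edge of the lower left, while Tcf3 and Tcf12 lie in the dense centre and Tcf4 is above it in pair 2 alone.

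The genes whose pattern over the 4 arrays was most like that of Id2 or Id3 were found by the distance between log2 values centred on each gene's own mean. For Id2, whose values spanned 1.80, they were Arhgap11a (distance 0.13), Mad2l1 (0.14) and Melk (0.16). For Id3, which spanned 3.61, they were Ccr7 (0.34), Mapk12 (0.35) and Aff3 (0.36). Mapk12 was dim on the wild-type arrays, at 34.2 and 4.01. These are descriptions over 4 arrays that share their labels and pairs.

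Other cell types of the spleen are known to carry these transcripts, and their markers were read beside them. Natural killer and innate lymphoid cells have high Id2; of 7 markers listed 6 were on the array and 5 were tested. Their summed signal was 2225 and 2369 on the labelled-deficient arrays, against 5340 and 4866 on the wild-type arrays. The T-box gene Eomes and the receptor gene Cd160 were the 2 that fell (3.53-fold and 5.50-fold lower), beside 1.35% of all genes. The lower sum lay mostly in these 2 genes. Eomes read 356 and 310 against 1036 and 1425, and Cd160 589 and 361 against 2569 and 2668. Eomes is also on the list of memory CD8 T cell genes below. The other markers tested did not pass: Klrk1, a receptor gene, had a log2 difference of -0.55, the perforin gene Prf1 -0.31 and the adaptor gene Tyrobp 0.67. Prf1 and Tyrobp were higher on the labelled-deficient array within pair 2 and lower within pair 1. The defining receptor gene Ncr1 stayed under the filter, with no array above 37.2. The part of these cells in the Id2 difference was not tested. Of the CD8 T cell genes Cd8a and Cd8b1, neither passed the test, and their summed signal was 423 and 663 against 518 and 367.

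The summed macrophage markers were higher on the labelled-deficient arrays, as Id3 was, without every marker being so. Macrophages are known for Id1 and Id2 too, and Id2 was lower on those arrays. Of 6 macrophage markers listed 5 were on the array, and all of these were tested. None passed in the unblocked fit, but 3 rose when blocked by pair, where 5.23% of all genes were called higher. The summed signal was 15377 and 11142 on the labelled-deficient arrays, against 10182 and 6494 on the wild-type arrays. Csf1r, the receptor for macrophage colony-stimulating factor, read 6676 and 5165 against 4749 and 2987 (log2 0.64 ± 0.26; limma adjusted p = 0.356, or 0.0101 blocked by pair). In the blocked fit the surface marker gene Adgre1 (log2 1.03, adjusted p = 0.000934) and the adhesion gene Vcam1 (0.92, 0.000391) rose too. The groups overlapped for the remaining markers, Cd68 (log2 0.075) and Cd5l (-0.036). Endothelial markers, known beside Id1 and Id3, summed to 556 and 501 against 489 and 397, with Tie1 and Tek under the filter. That sum followed Pecam1 alone, at 338 and 306 against 230 and 147. Cdh5, Kdr and Egfl7 had log2 differences of -0.32, -0.058 and -0.49, the median was -0.19, and none of these 4 genes passed. The part of these cells in the Id2 and Id3 differences was not tested.

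B cells are known for Tcf3 and Tcf4, and plasmacytoid dendritic cells for Tcf4. Summed B cell markers, 5 on the array of 6 listed, were 3040 and 2126 against 3093 and 1427, with the B cell factor gene Pax5 under the filter, at 44.7 and 40.2 against 17.7 and 7.41. Of the 4 tested none passed unblocked, while blocked by pair the surface gene Ms4a1 rose and the receptor gene Cd22 fell (adjusted p = 0.00494 and 0.0266 by limma). That blocked fit called 5.23% of all genes higher and 6.36% lower. Plasmacytoid dendritic cell markers, 7 of 7, summed to 2978 and 3930 against 5076 and 3104. These sums overlapped between the groups, and within pair 2 they were higher on the labelled-deficient array, as the Tcf4 probe sets were. Within pair 1 they were lower on it. For the plasmacytoid list that rested on the chemokine receptor gene Ccr9, since the other 6 markers, a subset chosen after the values were seen, summed to 1641 and 1579 against 1566 and 1122. Conventional dendritic cells are known for Id2, and their markers (6 of 7 on the array) summed to 907 and 908 against 946 and 760. Erythroid cells are known for Id1, and their markers (5 of 6) summed to 2851 and 2354 against 2547 and 2375. The part of any of these cells in the values of the members named beside them was not tested.

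Genes around the Id and E proteins were read as lists, beside a median log2 difference of -0.0034 over all genes tested. Of all genes, 1.21% were called higher and 1.35% lower, or 5.23% and 6.36% when blocked by pair. Of 15 other helix-loop-helix factors and E protein partners, 8 were tested, 0 rose and 1 fell, with a median of -0.20. The member that fell was Bhlhe40, a repressor induced by activation, at 524 and 503 against 2065 and 2759, 4.53-fold lower (limma adjusted p = 0.00703). Lyl1, Lmo2 and Ldb1, which form complexes with E proteins in blood cells, had log2 differences of 0.0026, -0.20 and 0.41 and did not pass.

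Genes reported as E protein targets in lymphocytes moved both ways. Of 22 listed 17 were tested, and 2 rose and 1 fell, beside 1.21% of all genes higher and 1.35% lower. The median log2 difference of the 17 was 0.05. The rises were Il7r, the interleukin-7 receptor (2.46-fold), and Foxo1 itself, and the fall was Cdkn1a, a cell cycle inhibitor (3.66-fold lower). Foxo1 is also the gene that the labels name, and its rise is the reading already given above. The part of E proteins in any of these changes was not tested. Blocked by pair, 3 rose and 3 fell, in a fit that called 5.23% of all genes higher and 6.36% lower. Without labelled-deficient replicate 2 Il7r and Cdkn1a missed the threshold (adjusted p = 0.0941 and 0.0838). Recombination genes Rag1 and Rag2 and the pre-T cell receptor gene Ptcra stayed under the filter. Cxcr5, the follicular homing receptor, had a log2 difference of -0.14 ± 0.30 (adjusted p = 0.944 by limma).

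Genes that carry signals to the Id genes gave no call in the unblocked fit on brightest probe sets, and 1 rise when the probe sets of a gene were averaged. All 15 receptor, SMAD, Egr and STAT genes were tested, and limma called 0, with 5 of the 15 at an unadjusted p under 0.05, beside 13.0% of all genes, and a median log2 difference of 0.22. Blocked by pair 4 rose, namely Smad1 and Smad5, which relay bone morphogenetic protein signals, the early response gene Egr3 and the cytokine relay gene Stat5b. The same fit had Smad3, which relays TGF-beta signals, lower; over all genes it called 5.23% higher and 6.36% lower. Smad5 read 911 and 1260 on the labelled-deficient arrays, against 434 and 662 on the wild-type arrays (log2 0.98 ± 0.30; limma adjusted p = 0.176, or 0.00187 blocked).

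Of the genes that accompany Id2 in effector CD8 T cells of mice, 10 were listed and 9 were tested. Of the 9, 6 fell and 0 rose, beside 1.35% of all genes lower and 1.21% higher, and their median log2 difference was -2.10. Those that fell included the granule protease genes Gzma and Gzmb, the cytokine gene Ifng and Tbx21, which encodes T-bet (25.7-fold, 11.4-fold, 6.72-fold and 4.49-fold lower). Zeb2 and Cx3cr1 did not pass, at log2 differences of -0.37 and -0.68. Il2ra, the interleukin-2 receptor alpha chain, read 4416 and 3962 against 2449 and 3584 (log2 0.50; limma adjusted p = 0.458), with groups that did not overlap. Genes that accompany Id3 in memory or precursor CD8 T cells moved both ways. Of 10 listed 8 were tested, and 3 rose and 1 fell, beside the same 1.21% and 1.35% of all genes, with a median of 0.33. Ccr7, a lymph node homing receptor, rose 8.38-fold and Bach2, a repressor of effector genes, 5.37-fold. Slamf6, a receptor of precursor cells, rose to 2552 and 2274, against 634 and 548. Eomes fell 3.53-fold. Blocked by pair 4 rose and 3 fell, in a fit that called 5.23% of all genes higher and 6.36% lower. Without labelled-deficient replicate 1 Bach2 missed the threshold (adjusted p = 0.0788), as Eomes did without labelled-deficient replicate 2 (0.0544). Members of both lists were known as changed when the lists were chosen, so their counts are not separate evidence.

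**Figure D4:**
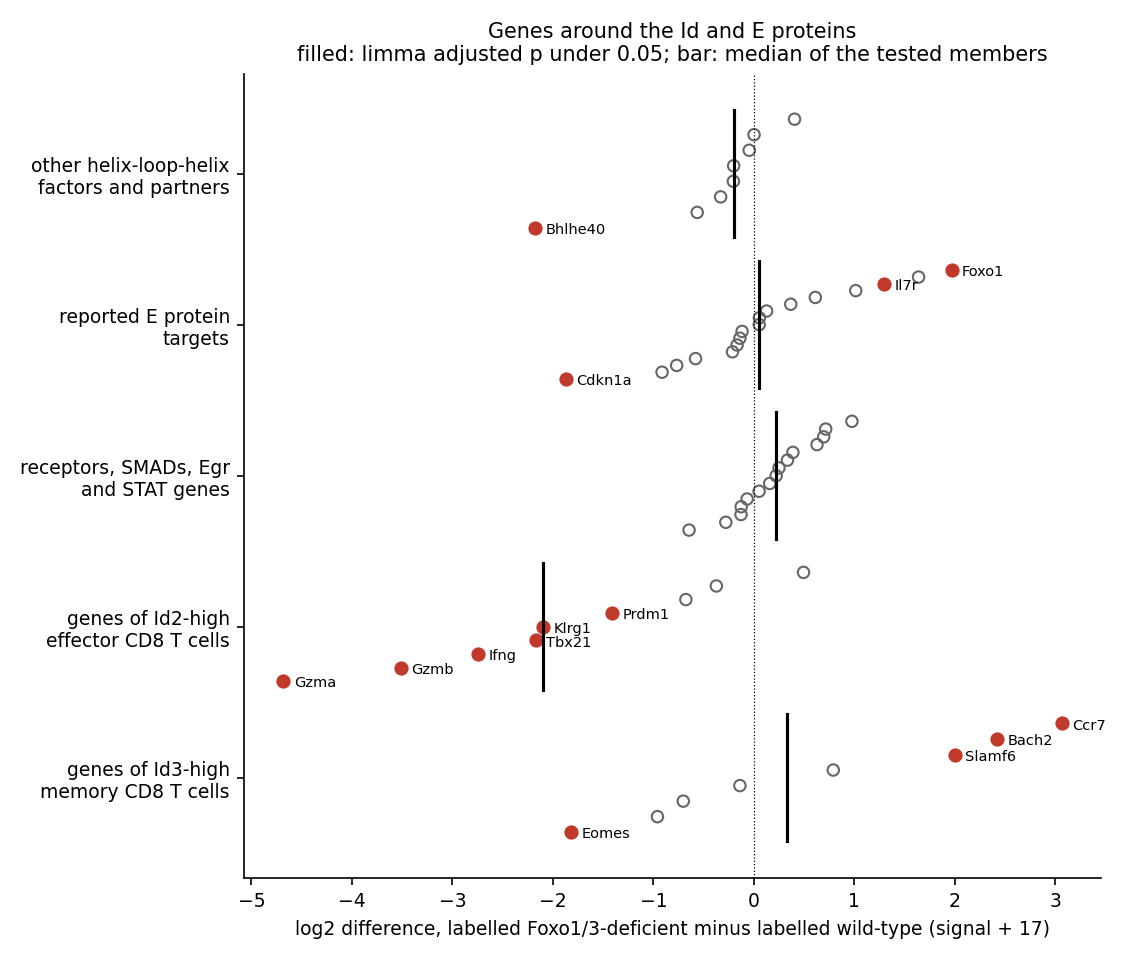
Log2 difference of signal + 17, labelled Foxo1/3-deficient minus labelled wild-type, of the tested genes of 5 lists (rows); filled points passed limma's adjusted threshold of 0.05, and the bar is the median of the tested members. The effector list lies mostly left of 0, with a median of -2.10, and the other medians lie between -0.20 and 0.33.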

How the data were processed

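Probe-set signals of 4 arrays were read as deposited. The authors computed these intensity values with MAS5, on a linear scale, according to the submitters' processing notes, and the sources used here give neither its version nor its settings. Every array had a trimmed mean of about 500, so no scaling was added, and medians ran from 72.0 to 83.4. With 4 arrays, their number sets the precision. Of 45101 probe sets 34945 carried 1 gene symbol, 932 several and 9160 none, by a platform annotation that can be old. Signals were taken as log2(signal + 17), 17 being the rounded 25th percentile, and probe sets under the 40th percentile of mean log2 were left out. limma 3.58.1 in R 4.3.3 (lmFit, eBayes with trend, two-sided, Benjamini-Hochberg) compared the labels with 2 residual and 5.69 prior degrees of freedom. The smallest exact p of 2 arrays against 2 is 0.333, so each p leans on the shared variance model. The titles number the pairs. Deviations of arrays of the same pair correlated across genes at r = 0.367, and the pair was a blocked alternative. The script was tested on simulated data. All member genes are named, list members past the threshold up to 4 in each direction, and the 3 genes nearest to each member moved 1.5-fold in both pairs without overlap. Genes named beyond this rule were chosen after their values were seen. Members and lists were chosen with earlier results of these data known. Promoters and names came from RefSeq tables (GRCm38.p6). Alternatives covered pseudocount, filter, probe set choice, normalization, trend, block and each array left out.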

Additional observations from a re-analysis of the deposited data

Results flagged for a closer look

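In 5 E protein probe sets the ratio of labelled Foxo1/3-deficient over wild-type pointed opposite ways in the 2 pairs, a difference that was not tested. None of the 5 was called, and the share of all probe sets that did so was not computed. On the log2(signal + 17) scale, Tcf3 1427764_a_at stood at 0.45 in pair 1 and -0.24 in pair 2. Tcf4 1416724_x_at stood at -0.056 and 0.99, and Tcf4 1424089_a_at at -0.43 and 1.13. Tcf12 1439209_at stood at -0.26 and 0.31, and Tcf12 1446294_at at 0.22 and -0.28.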

How the results depend on the processing

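Of 422 recomputed differences that carry a test, 381 kept their direction and side of the threshold, 29 no longer passed and 12 changed sign. The cause of these changes was not tested. The 422 pool member and list genes, and some member probe sets enter through both the gene fit and the probe-set fit. A difference that was not called at first had no call to lose, so the 381 do not measure how stable the calls are. On its brightest probe set, Id2 (-1.40) missed the threshold without the filter on dim probe sets (limma adjusted p = 0.112). It did so too without the intensity trend (0.125). Over probe sets these were 0.172 and 0.157. With each gene read from its brightest probe set, 0 member genes were lower under either setting. The second Id2 probe set, 1422537_a_at, passed over probe sets under both (0.0397 and 0.0373). Over genes, Id3 (2.85) narrowly passed without the filter (limma adjusted p = 0.0490) and without the trend (0.0455). Tested over probe sets, its 1 probe set missed the threshold without the filter (0.0695) and without the trend (0.0506). With 1 array left out, Id2 ran from -1.79 to -1.02 and Id3 from 2.33 to 3.36, with 0 to 1 member genes lower. The second Id2 probe set ran from -2.19 to -1.96. Of unchanged calls, Tcf3 ran from 0.11 to 0.17, Tcf4 from 0.44 to 1.02 and Tcf12 from -0.020 to 0.43.

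Leaving out an array turned the sign of uncalled probe sets: Tcf4 1416724_x_at ran from -0.19 to 1.12, 1424089_a_at from -0.36 to 1.07, Tcf3 1427764_a_at from -0.33 to 0.54, Tcf12 1439209_at from -0.21 to 0.26, 1446294_at from -0.18 to 0.12 and 1427670_a_at from -0.020 to 0.43. Quantile normalization put 1439209_at at -0.0012. The within-pair 2 ratio of Tcf3 turned to -0.020 with the mean of its probe sets. Over all genes, 147 were higher and 164 lower; these became 45 and 44 without the filter, 57 and 54 without the trend, 634 and 770 with the replicate block, and 67 to 278 and 82 to 266 with 1 array left out (both fewest without labelled-deficient replicate 1, both most without wild-type replicate 1). Counted over probe sets, 440 rather than 250 were 2-fold higher in both pairs, 1.98% of 22236 probe sets beside 2.06% of 12115 genes. The pair as a block changed no call of a member gene or probe set. Without the filter or the trend Foxo1, Ccr7, Prdm1, Bach2 and Eomes also missed the threshold, 0 E protein targets rose or fell, and 1 gene of the Id3 memory list rose and 0 fell. Dim signals limit Id1, Tcf3 1452542_x_at and Tcf4 1416725_at.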
